A study of Mus musculus with 13 samples.

Results

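The comparison described here was that of iNKT1 cells with iNKT17 cells, both sorted from the thymus of young adult BALB/c mice at 6 weeks of age. Its members were the genes of the deposited table of normalized read counts that reached a value of 10 or more in at least 2 of the 4 libraries compared, and 10725 of the 24421 genes in the table did so. All animals were unmanipulated wild type BALB/c females, and the thymi of several young mice were pooled for each sort. iNKT1 cells were sorted as B220- CD3+ CD1d tetramer+ CD122+ cells (libraries N0802 and N0805, from 103000 and 105000 cells), and iNKT17 cells as B220- CD3+ CD1d tetramer+ CD122- CD4- cells (libraries N0804 and N0807, from 217000 and 157000 cells). The series also held iNKT2 cells of the same age, which share the tetramer gate and differ from the iNKT17 sort by CD4, and the 3 sorts from mice of 25 weeks. Values are normalized read counts, and 4 values written as a and b against c and d are those of N0802 and N0805 (iNKT1) against N0804 and N0807 (iNKT17). A difference is the log2 difference iNKT1 minus iNKT17 with its standard error, from 2 libraries per group, so that a positive value is a higher level in iNKT1.

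Invariant NKT cells are T cells with a fixed T cell receptor alpha chain that see lipids on CD1d, and they acquire effector functions while still in the thymus. iNKT1 cells are known for the transcription factor T-bet, for dependence on IL-15 through CD122 and for interferon gamma. iNKT17 cells are known for response to IL-23 and IL-1 and for IL-17. Since the sort used CD122 and CD4, the genes for these proteins were part of the gate and are no findings: *Il2rb* (CD122) had 11277 and 7559 against 1188 and 1179 and *Cd4* had 965 and 553 against 91.4 and 124.

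Promoters were looked at for the type 1 and type 17 lists and for the 15 largest differences in each direction. Each window was the 250 bases before a RefSeq transcript start. Core letters of a T-box motif were sought only in type 1 genes and the largest differences toward iNKT1. Those of a ROR-type motif were sought only in type 17 genes and the largest differences toward iNKT17. The direction of the matched genes was thus largely set by this choice. Sequences with a match are shown. The letters searched on both strands were GGTGTGA, the T-box core, and TNGGTCA, a ROR-type core with N as any base. These sequences are from RefSeq on GRCm38.p6, 5′ to 3′ along the gene, with the match to the letters sought for that gene in capitals. ROR-type letters also stood in windows of genes higher in iNKT1, for example *Stat4*, *Klra7* and *Samd3*, where they are left in lower case. A T-box match was found for *Xcl1* (chr1:164935523-164935772, minus strand), *Nkg7* (chr7:43436888-43437137, plus strand), *Cd160* (chr3:96814522-96814771, minus strand) and *Samd3* (chr10:26229457-26229706, plus strand), which were all higher in iNKT1.
Xcl1: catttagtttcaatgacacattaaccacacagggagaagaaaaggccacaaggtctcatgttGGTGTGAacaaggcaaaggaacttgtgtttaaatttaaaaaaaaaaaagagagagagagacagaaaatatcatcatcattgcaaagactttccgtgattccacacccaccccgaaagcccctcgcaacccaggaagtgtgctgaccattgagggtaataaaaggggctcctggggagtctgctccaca
Nkg7: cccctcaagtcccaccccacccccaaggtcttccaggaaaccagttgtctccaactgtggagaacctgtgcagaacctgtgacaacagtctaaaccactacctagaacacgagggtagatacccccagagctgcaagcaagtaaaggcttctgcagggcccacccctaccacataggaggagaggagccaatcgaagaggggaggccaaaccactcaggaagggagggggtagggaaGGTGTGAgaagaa
Cd160: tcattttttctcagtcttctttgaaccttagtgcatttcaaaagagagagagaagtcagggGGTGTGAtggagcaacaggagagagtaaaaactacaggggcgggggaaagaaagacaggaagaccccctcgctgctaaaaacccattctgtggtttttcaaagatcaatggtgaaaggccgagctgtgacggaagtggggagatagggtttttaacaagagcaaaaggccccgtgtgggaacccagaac
Samd3: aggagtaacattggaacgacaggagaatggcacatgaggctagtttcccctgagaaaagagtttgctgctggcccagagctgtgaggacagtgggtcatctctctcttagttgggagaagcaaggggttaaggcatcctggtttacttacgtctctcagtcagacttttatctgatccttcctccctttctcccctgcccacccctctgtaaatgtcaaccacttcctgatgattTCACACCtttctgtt
A ROR-type match was found for *Il23r* (chr6:67491856-67492105, minus strand), *Il17re* (chr6:113458521-113458770, plus strand) and *Ccr6* (chr17:8235793-8236042, plus strand), which were all higher in iNKT17.
Il23r: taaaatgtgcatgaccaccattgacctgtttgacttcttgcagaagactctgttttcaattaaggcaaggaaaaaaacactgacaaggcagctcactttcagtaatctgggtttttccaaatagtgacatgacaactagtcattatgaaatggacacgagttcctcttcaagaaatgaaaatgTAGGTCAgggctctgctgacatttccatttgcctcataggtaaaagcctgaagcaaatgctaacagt
Il17re: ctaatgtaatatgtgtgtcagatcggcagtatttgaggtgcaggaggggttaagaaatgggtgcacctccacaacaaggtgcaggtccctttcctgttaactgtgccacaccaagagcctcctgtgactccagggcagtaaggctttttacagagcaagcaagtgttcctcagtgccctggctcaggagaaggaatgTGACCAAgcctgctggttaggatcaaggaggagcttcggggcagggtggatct
Ccr6: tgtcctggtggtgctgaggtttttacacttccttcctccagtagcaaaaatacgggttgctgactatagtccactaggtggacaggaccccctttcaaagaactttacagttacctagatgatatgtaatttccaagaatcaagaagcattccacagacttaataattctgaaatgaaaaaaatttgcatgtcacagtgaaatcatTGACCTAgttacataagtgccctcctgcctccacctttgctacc
The match began 188, 13, 189 and 15 bases before the start for the T-box genes in the order shown, and 67, 53 and 44 bases before it for the ROR-type genes. Most windows looked at held no match to the letters sought. Among these were *Tbx21*, *Ifng*, *Gzma* and *Gzmb* for the T-box and *Sdc1*, *Il1r1* and *Rora* for the ROR-type letters. A further window of *Cd160* (chr3:96829352-96829601) and of *Ccr6* (chr17:8242276-8242525), at other transcript starts, also held no match.

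These matches were also counted over all genes. A window was found for 8610 members. Of members with a window, T-box letters were found for 20 of 323 called at least log2 2 higher in iNKT1 (6.19%). They were found for 8 of 368 called at least log2 2 higher in iNKT17 (2.17%) and for 3.36% of all members with a window. The ROR-type letters were found for 44 of 368 members on the iNKT17 side (12%), 21 of 323 on the iNKT1 side (6.50%) and 9.76% of all members with a window. Of all 32851 RefSeq windows, 3.33% held the T-box and 9.19% the ROR-type letters. A gene can have several windows, so shares of members and of windows differ in unit. A match is a description of the letters and not a binding site, and a window without one says only that these letters are not in it.

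The 4 libraries held 5682449, 3590903, 7752231 and 8105972 reads in genes, so that 1 read was worth 1.08, 1.85, 0.768 and 0.763 normalized counts, and N0805 was the shallowest. The libraries of each group differed by more than counting error, and 76.6% of members lay within 2-fold of each other in the iNKT1 libraries and 95.6% in the iNKT17 libraries. Libraries N0805 and N0807 stood apart from the other library of their group by *Krt8*, a keratin of epithelium (3.23 and 424 in iNKT1, 0.768 and 54.1 in iNKT17), and by the Y-linked *Eif2s3y*, which had 0 and 96.2 in iNKT1 and 0 and 6.10 in iNKT17 although all mice were female. Several lists of other cell types separated the libraries of the 2 subsets by their summed level. That of double-positive thymocyte genes was 19686 and 18259 normalized counts in iNKT1 and 4713 and 5550 in iNKT17, 12 of the 18 members of the list were called higher in iNKT1 and 0 lower (1 without N0802), and *Rag1*, which cuts the receptor genes, had 5903 and 6309 against 526 and 941. The thymic epithelium list summed to 2796 and 1677 in iNKT1 and 316 and 444 in iNKT17. Of its 17 genes 6 were members, of which 1 was called, *Cdh1*, the gene of E-cadherin, higher in iNKT1 with 2021 and 568 against 18.4 and 25.9 (5.55 ± 0.67), while *Foxn1*, *Psmb11* and *Aire*, which define that epithelium, were at 0 in all 4 libraries. The lists summing higher in iNKT17 were those of endothelium (216 and 122 against 953 and 1165), of iNKT2 cells (4500.0 and 3238 against 7509 and 8947, with 2 of 12 members called higher in iNKT1 and 7 in iNKT17, or 4 without N0807) and of regulatory T cells (1532 and 1022 against 2223 and 2016, with 1 and 2 of 5 called, or 1 and 0 without N0805, N0806 and N0807), whose defining gene *Foxp3* had 2 reads in N0802 and none elsewhere. Sums of the myeloid list overlapped. The part of these cells in the differences was not tested. The study described *Rag1*, *Dntt*, *Ctsl*, *Cd8a* and *Cd8b1* in young iNKT1 cells as recalling T cell precursors. On re-analysis of the sorted cells it gave a high purity for the young populations. Genes of B and erythroid cells gave no member, and *Ms4a1* and *Hbb-bs* were at 0 in all 4 libraries.

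Of the 10725 members, 885 were called higher in iNKT1 and 1010 higher in iNKT17 by limma at an adjusted p under 0.05, beside 7.75% and 9.25% of all 11530 genes tested over the 12 libraries of the series. These 2 shares are also the background of the list counts above and below. Each called member had both libraries of one group above both of the other. The difference was at least log2 2, or 4-fold, for 415 and 488 of them, beside 3.67% and 4.73% of all genes tested, and at least log2 5 for 96 and 138. A group without any read was more often seen on the iNKT1 side: 115 members called higher in iNKT17 had 0 reads in both iNKT1 libraries, and 25 members called higher in iNKT1 had 0 reads in both iNKT17 libraries. The iNKT1 libraries were the shallower ones, and 3 reads corresponded to 5.55 normalized counts in the shallower iNKT1 library and to 2.31 in the shallower iNKT17 library. Called or not, both iNKT1 libraries lay above both iNKT17 libraries for 2893 members, and both iNKT17 libraries above both iNKT1 libraries for 2839, beside 26.0% and 26.8% of all genes tested. With a gap of at least 2-fold these numbers were 692 and 671, beside 6.26% and 7.02%. The median log2 difference over the members was -0.01.

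A member could enter through one group alone, and such a gene had to differ. There were 260 members with 10 or more in iNKT1 libraries only and 317 in iNKT17 libraries only. Among the 10148 members with 10 or more in a library of both groups, 730 were called higher in iNKT1 and 752 higher in iNKT17. Without N0802 the counts over all members rose to 1541 and 2294, without N0804 they fell to 512 and 550 and without N0807 to 526 and 543, and a fit of the 4 libraries alone gave 459 and 435. Without N0805, N0806 and N0807 they were 718 and 685. The study describes 2 independent sorts from pooled thymi, but the labels do not say which libraries of different subsets shared a sort. The fit therefore held no term for the sort, and the p-values measure only the spread among these libraries. In sorted pools, fewer cells of a type and less RNA per cell cannot be told apart.

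**Figure D1:**
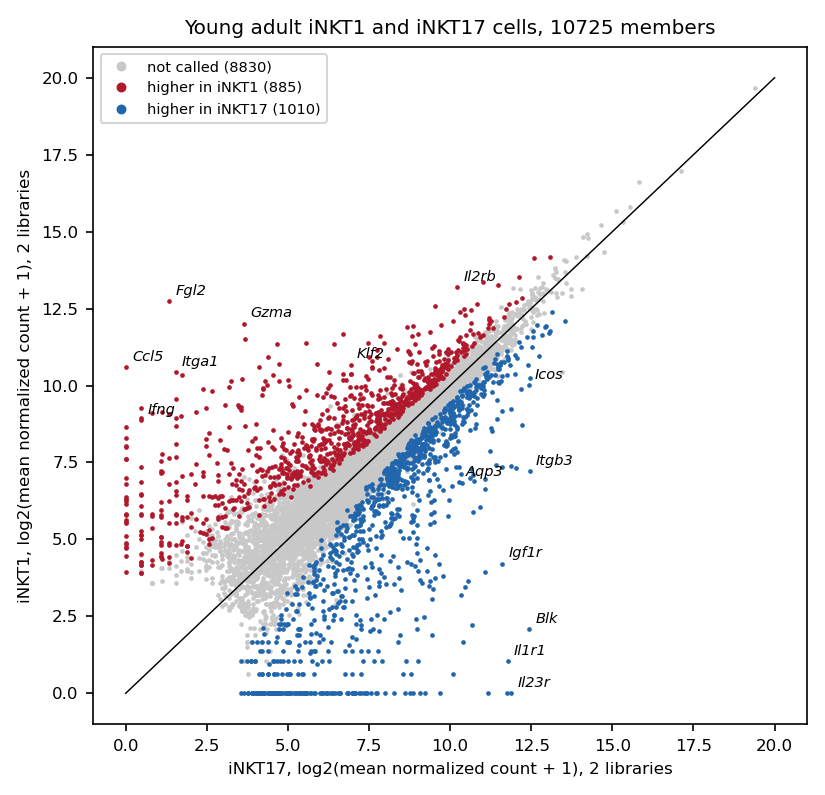
Mean normalized count of each of the 10725 members in iNKT17 (x axis) and iNKT1 (y axis), 2 libraries each, as log2(mean + 1), with genes called by limma in colour. The 885 genes higher in iNKT1 and the 1010 higher in iNKT17 flank a grey diagonal of 8830 genes that were not called, and the genes on the axes had 0 reads in one subset.

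The type 1 list held the regulators, receptors and effectors of iNKT1 and NK cells, and 27 of its 29 members were higher in iNKT1 and 0 in iNKT17 (median log2 difference 6.70, beside -0.02 over all genes tested). Of these 29, 13 had entered through the iNKT1 libraries alone, and *Il2rb* was one of the genes of the gate. Like the other lists, this one was drawn up with earlier results of these data known. Its count is thus a description and no test. *Tbx21*, which encodes T-bet, had 1579 and 1560.0 against 17.7 and 14.5 and a difference of 6.53 ± 0.40 (limma adjusted p = 8.97e-07). *Eomes*, the related T-box factor of NK and memory T cells, had 87.1 and 46.3 against 0 and 0.763, and its difference of 5.60 ± 1.02 rested on at most 1 read in iNKT17 (adjusted p = 0.00243). Both T-box genes were high in both iNKT1 libraries and close to 0 or low in both iNKT17 libraries. *Stat4*, which transmits IL-12 signals, had 921 and 719.9 against 67.6 and 50.3 and differed by 3.78 ± 0.30 (adjusted p = 6.24e-06). *Hopx*, a homeobox cofactor of effector T cells, had 404 and 409 against 3.84 and 0. The 2 members of this list that were not called were *Id2*, an inhibitor of E proteins, with 4509 and 6949 against 4407 and 4218, and *Klrb1c*, which encodes the NK1.1 receptor chain of other strains, with 195 and 211 against 186 and 154. Without N0802 *Id2* was called higher in iNKT1 (difference 0.69, adjusted p = 0.0171).

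Receptor chains for IL-12, IL-18 and IL-10 differed, and not all in one direction. *Il12rb2*, the signalling chain of the IL-12 receptor, had 959.6 and 548 against 3.84 and 0, and differed by 8.37 ± 1.00 (adjusted p = 0.000119). Its partner *Il12rb1*, which also serves the IL-23 receptor, ran the other way with 185 and 128 against 912 and 981, and differed by -2.61 ± 0.21 (adjusted p = 7.16e-06). The IL-12 receptor chain that is not shared with the IL-23 receptor was thus high in both iNKT1 libraries, while the chain shared with it was low there. The IL-18 receptor chains also split: *Il18rap* was higher in iNKT1 by 1.04 ± 0.19 and *Il18r1* lower by a log2 difference of -1.03 ± 0.20. With the 4 libraries alone *Il18r1* lost its call (limma adjusted p = 0.0922). *Il10ra*, the ligand-binding chain for IL-10, had 597 and 472 against 1.54 and 1.53, a difference of 7.71 ± 0.50 (adjusted p = 1.31e-06), and *Il10rb* differed by 2.16 ± 0.26. The receptor genes *Il21r* (2.94 ± 0.30) and *Il4ra* (1.87 ± 0.23) were higher in iNKT1 too.

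Effector genes were among the largest differences of the comparison. *Fgl2*, a secreted fibrinogen-like protein, had 6433 and 7365 against 1.54 and 1.53, or 2 reads in each iNKT17 library, and its difference of 11.41 ± 1.10 was the largest toward iNKT1 among members at 100 or more in both iNKT1 libraries (adjusted p = 2.38e-05). The chemokine gene *Ccl5* had 1593 and 1504 and no read in either iNKT17 library, so it was at least 672-fold higher against a floor of 3 reads (adjusted p = 8.75e-07). *Xcl1*, the chemokine that attracts cross-presenting dendritic cells, had 329 and 470.0 against no read and was at least 173-fold higher. In none of these genes did a library of iNKT17 come near one of iNKT1. *Ifng*, the interferon gamma gene, had 427 and 507 against 0.768 and 0, which was a single read in N0804 and none in N0807 (log2 difference 8.45 ± 0.62, adjusted p = 3.30e-06).

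Of the 19 members of the cytotoxic list, 10 were higher in iNKT1 and 2 in iNKT17, beside 7.75% and 9.25% of all genes tested. *Gzma* had 4106 and 4139.7 against 6.15 and 16.8 (log2 difference 8.52 ± 0.97), and *Gzmb* had 2842 and 2421 against 20.7 and 28.2 (6.70 ± 0.81), both serine proteases of lytic granules. The pore-forming *Prf1* had 793 and 398 against 9.99 and 11.4 (5.59 ± 0.68). The death ligand genes *Fasl* (6.77 ± 0.60) and *Tnfsf10* (2.61 ± 0.18), and *Serpinb9*, an inhibitor of granzyme B (2.55 ± 0.25), were higher in iNKT1 too. The 2 members higher in iNKT17 belong to granule traffic and lysosomes: *Rab27a*, which docks granules at the membrane, had 639 and 448 against 1757 and 1730.5 (-1.70 ± 0.19), and *Lamp2* differed by -1.09 ± 0.22. Without N0804 *Lamp2* lost its call (adjusted p = 0.0621).

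**Figure D2:**
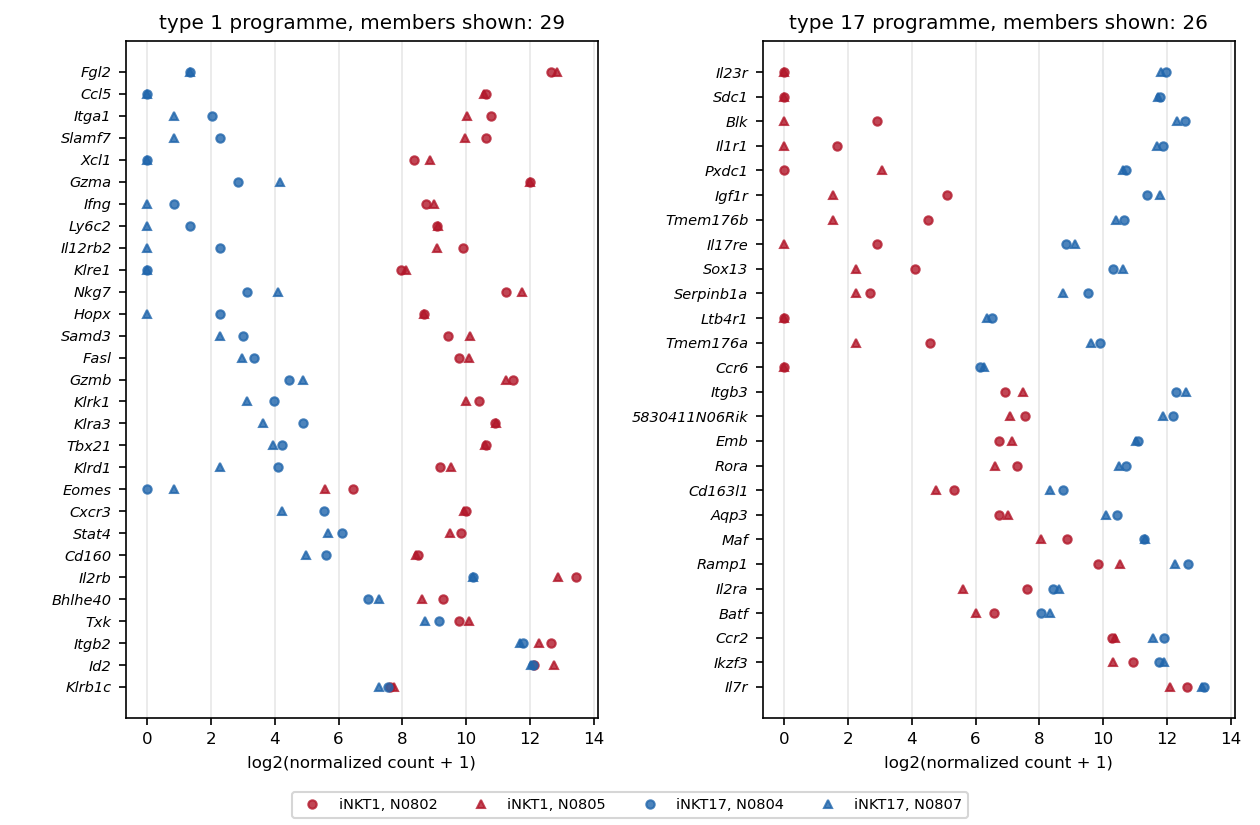
Normalized counts of the 29 members of the type 1 list and of 26 of the 27 members of the type 17 list in each of the 4 libraries, as log2(normalized count + 1), with circles and triangles for the 2 libraries of a subset. Apart from *Klrb1c* and *Id2* at the foot of the left panel, red and blue symbols do not meet, and points at 0 had no read.

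Of 24 members of the list of NK cell receptors, 18 were higher in iNKT1 and 1 in iNKT17, with a median log2 difference of 6.13, or 5.77 when genes without a read in one subset are set to their bound. Of the 24, 11 had entered through iNKT1 libraries alone. *Ncr1*, which encodes NKp46, had 598 and 378 against 0.768 and 0 (8.48 ± 0.69, adjusted p = 6.79e-06). *Klrk1*, the gene of the activating receptor NKG2D, had 1361 and 1031 against 14.6 and 7.63 (6.67 ± 0.86). *Klrc1* and *Klrd1*, whose products pair as the inhibitory receptor NKG2A with CD94, differed by 6.97 ± 0.77 and 6.17 ± 1.11. All of these genes were far higher in both iNKT1 libraries than in either iNKT17 library. The exception was *Crtam*, a class I restricted adhesion receptor of activated T cells, which had 9.68 and 0 against 99.9 and 172 (-5.34 ± 1.07, adjusted p = 0.0045, and 0.0502 without N0807). *Klrb1f*, with 326 and 287 against 179 and 117, was not called. Without N0805, N0806 and N0807 the difference of *Klrd1* was 5.08 and not called (adjusted p = 0.113), nor was that of *Cd160*, a receptor for HVEM (2.87, adjusted p = 0.0891).

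The lectin-like receptor genes lie together on mouse chromosome 6 (mm10), between positions 128609227 and 131247362, and 14 of the 18 *Klr* members there were higher in iNKT1 and 0 in iNKT17, beside 7.75% of all genes tested. This span was chosen after its values were seen. All 14 lie in one uninterrupted run of members from *Klre1* to *Klra1*, in which log2 differences were between 5.72 (*Klra5*) and 8.21 (*Klra7*). The 4 *Klrb1* genes at the other end of the span were not called. Among these lie 3 called genes of which 1, the C-type lectin gene *Clec2i*, was higher in iNKT1 (53.8 and 98.1 against 20.7 and 11.4, 2.16 ± 0.66) and 2 were higher in iNKT17: *Clec2g*, also a C-type lectin, had 0 and 0 in iNKT1 and 62.2 and 30.5 in iNKT17, and the neighbouring *Gm15987* had 0 and 0 and 118 and 139.6. The call of *Clec2i* was lost without N0804 (adjusted p = 0.0942), N0805 (0.194) or N0807 (0.269). *Cd69*, the early activation lectin that also retains cells in tissue, lies between both parts and had 357 and 664 against 101 and 103 (2.25 ± 0.32), and *Styk1*, which encodes the kinase-like NOK and lies just past *Klra1*, had 209 and 183 against 0 and 0 (7.62 ± 0.70). Genes of the *Klra* family are near-identical, so reads may be split among them and single values are uncertain.

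A second run of neighbours on chromosome 6 was that of the Gimap GTPases, which are known for roles in lymphocyte survival. All 8 *Gimap* genes between positions 48647234 and 48770851 were members. All 8 were higher in iNKT1, beside 7.75% of all genes tested, with a median log2 difference of 1.85. This span was also chosen after its values were seen. The smallest difference was that of *Gimap1* (0.73 ± 0.16), which lost its call without N0804 (adjusted p = 0.0659) or N0807 (0.0611), and *Gimap3* had 2643 and 2729.6 against 44.6 and 48.0 (5.83 ± 0.17, adjusted p = 4.45e-09). The next genes along the chromosome ran the other way. *Tmem176b* had 21.5 and 1.85 against 1626 and 1361 (-7.54 ± 0.66), and *Tmem176a*, which like it encodes a membrane protein, had 22.6 and 3.70 against 962 and 791 (-6.37 ± 0.78). Between adjacent members the call thus changed from higher in iNKT1 to higher in iNKT17. On chromosome 7, the 4 *Ifitm* members, of a family named for induction by interferon, were all higher in iNKT1, beside 7.75% of all genes tested. An example was *Ifitm2* with 324 and 192 against no read (at least 112-fold). These genes were also chosen after their values were seen, and they form no uninterrupted run. Their span held 26 other members, of which 1 was called higher in iNKT1 and 2 in iNKT17.

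**Figure D3:**
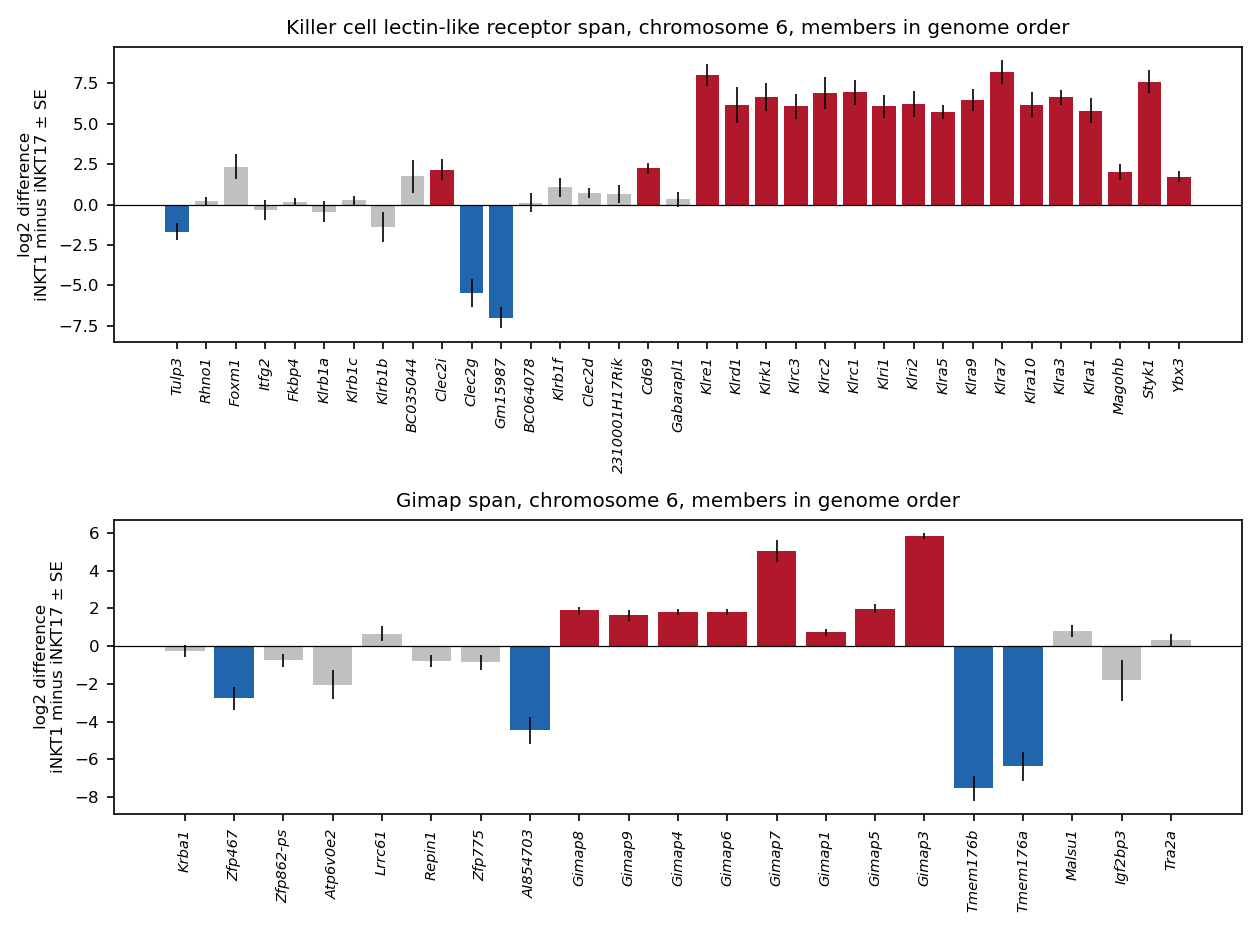
Log2 difference between iNKT1 and iNKT17 with its standard error for the members of 2 spans of chromosome 6, in genome order and not to distance, including genes on both sides. In the upper panel the 14 genes from *Klre1* to *Klra1* stand between 5.72 and 8.21, and in the lower panel the 8 *Gimap* genes are positive and are followed by *Tmem176b* and *Tmem176a* at -7.54 and -6.37.

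The type 17 list held regulators, receptors and surface genes of IL-17-producing T cells. It too was drawn up with earlier results of these data known, so its count is a description and no test. Of its 30 genes 27 were members, and all 27 were higher in iNKT17, with a median log2 difference of -5.25, or -4.12 with genes at 0 set to their bound, beside -0.02 over all genes tested, and 9 of the 27 had entered through the iNKT17 libraries alone. The 3 genes below the filter were the cytokines themselves: *Il17a* had 0 and 0 normalized counts in iNKT1 and 4.61 and 2.29 in iNKT17, *Il17f* had no read in any of the 4 libraries, and *Il22* had a single read in N0807. *Rora*, a nuclear receptor of IL-17-producing T cells, had 158 and 96.2 against 1689.8 and 1451 (-3.65 ± 0.24, adjusted p = 1.31e-06). *Maf*, a regulator of IL-17-producing T cells, had 468 and 265 against 2498 and 2560.2 (-2.84 ± 0.26). Both regulators were read in all 4 libraries and still separated the subsets without overlap. The separation was wider for *Sox13*, a factor of IL-17-producing γδ T cells, with 16.1 and 3.70 against 1260.3 and 1582 (-7.30 ± 0.49, adjusted p = 1.57e-06).

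Several genes of the list encode cytokine receptors. *Il23r* had no read in either iNKT1 library and 4004 and 3574 normalized counts in iNKT17, at least 683-fold higher against the 3-read floor (adjusted p = 4.56e-10). *Il1r1*, the signalling receptor for IL-1, had 2.15 and 0 against 3745 and 3280.2 (-10.95 ± 0.45). Both receptors were high in both libraries of iNKT17, and the iNKT1 libraries held 0 or 2 reads. *Il17re*, a receptor chain for IL-17C, had 6.45 and 0 against 456 and 561 (-7.54 ± 0.82), and *Il17rb*, the IL-25 receptor, had 22.6 and 0 against 252 and 194 (-5.52 ± 1.01). In a fit of the 4 libraries alone *Il17rb* lost its call (limma adjusted p = 0.0864). Over the whole list of cytokine receptors, 9 of 34 members were higher in iNKT1 and 14 in iNKT17, and the latter count was 8 without N0804 and 9 without N0807. *Il6ra*, the IL-6 receptor (-6.13 ± 0.53), *Il27ra*, the IL-27 receptor (-1.42 ± 0.15), and *Il7r*, the IL-7 receptor that maintains resting T cells (6305 and 4412 against 9287 and 8801, -0.78 ± 0.21), were higher in iNKT17. *Il7r* lost its call without N0804 (adjusted p = 0.135), N0805 (0.0895) or N0807 (0.0987).

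The list also held surface and signalling genes. *Blk*, a Src-family kinase of B cells and γδ T17 cells, had 6.45 and 0 against 6079 and 5063 (-10.99 ± 0.71, adjusted p = 1.31e-06). *Sdc1*, which encodes the heparan sulfate proteoglycan syndecan-1 (CD138), had no read in iNKT1 and 3542 and 3379 in iNKT17, at least 623-fold higher. *Igf1r*, the receptor for insulin-like growth factor 1, had 33.3 and 1.85 against 2647 and 3552 (-8.28 ± 0.80). All 3 were high in both iNKT17 libraries and low or without a read in both iNKT1 libraries. *Itgb3*, the beta 3 integrin chain, had 119 and 178 against 5015 and 6192 (-5.25 ± 0.25). The scavenger receptor genes *5830411N06Rik* (-4.71 ± 0.21) and *Cd163l1* (-3.50 ± 0.49), both known from γδ T cells, were higher in iNKT17. Of the list of genes shared with γδ T17 cells, 13 of 16 members were higher in iNKT17 and 0 in iNKT1, but 12 of the 16 also belong to the type 17 list.

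Several genes with the largest differences toward iNKT17 are better known from other tissues. *Vax2*, a homeobox gene of the ventral eye, had no read in iNKT1 and 430.3 and 444 normalized counts in iNKT17 (at least 78.7-fold higher, adjusted p = 1.07e-06). *Mapk10*, the JNK kinase of neurons, had no read and 562 and 639 (at least 108-fold). For both genes the iNKT17 libraries held the gene at a like level. *Stab2*, a scavenger receptor of sinusoidal endothelium, had 1.08 and 0 against 1254 and 931 (-9.55 ± 0.80). *Flt4*, the receptor VEGFR-3 of lymphatic endothelium, had no read and 88.4 and 94.6, and *Eng*, the endothelial co-receptor for TGF-beta, had 42.0 and 9.25 against 539 and 715 (-4.89 ± 0.59). Of the 12 genes of the endothelium list 4 were members, and 3 of them were higher in iNKT17, *Eng*, *Flt4* and *Pecam1*, an adhesion molecule also of leukocytes (-1.47 ± 0.31). The remaining one, *Vcam1*, was higher in iNKT1 with 11.8 and 22.2 against 0 and 0.763 (3.70 ± 1.06), a call lost without N0804 (adjusted p = 0.17), N0805 (0.139) or N0807 (0.09), and *Pecam1* lost its call without N0807 (0.0553). The defining endothelial genes *Cdh5*, *Tek*, *Tie1*, *Vwf* and *Emcn* were at 0 in all 4 libraries. Further genes of this kind were *Mmp25*, a membrane-anchored metalloproteinase (no read and 2212 and 2351, at least 411-fold), *Kcnk1*, a potassium channel subunit (no read and 524 and 392), and *Coro2b*, a coronin (4.30 and 0 against 1197 and 1521).

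Transcription factors leaned toward iNKT17. Of 47 members of the list, 8 were higher in iNKT1 and 22 in iNKT17, beside 7.75% and 9.25% of all genes tested, with a median of -0.78. The counts were 4 and 16 without N0804, 4 and 13 without N0807, and 8 and 14 without N0805, N0806 and N0807. *Zbtb16*, which encodes PLZF, the factor that gives NKT cells their innate character, had 725 and 470.0 against 3311 and 4246 (-2.68 ± 0.24, adjusted p = 1.33e-05). *Id3* had 75.3 and 165 against 639 and 661 (-2.53 ± 0.33), whereas its relative *Id2* was not called. The factors *Irf4* (-2.35 ± 0.26), *Tox* (-1.74 ± 0.22), *Runx1* (-1.88 ± 0.30), *Ikzf2* (-1.43 ± 0.27) and *Batf* (-1.90 ± 0.31) were higher in iNKT17, but without N0805, N0806 and N0807 *Ikzf2* (adjusted p = 0.0532) and *Batf* (0.0600) lost their calls. On the iNKT1 side the largest difference after the T-box genes and *Stat4* was that of *Klf2*, a regulator of lymphocyte migration, with 1672 and 1606 against 118 and 124 (3.75 ± 0.20, adjusted p = 4.56e-07). *Runx3* had 1074 and 285 against 752 and 1039 and was not called. Its difference was -1.63 without N0802, 0.28 without N0805 and 0.51 without N0805, N0806 and N0807, so its direction turned with the libraries used. Its 2 iNKT1 libraries lay above and below both iNKT17 libraries.

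Receptors and adaptors that carry the signalling motif for Syk-family kinases differed by chain. *Fcer1g*, the Fc receptor gamma chain, had 821 and 409 against 0 and 0.763 (8.77 ± 0.90, adjusted p = 3.89e-05), and *Tyrobp*, which encodes the adaptor DAP12, had 61.3 and 109 against 0 and 0.763 (5.96 ± 0.91). *Syk* itself had 108 and 79.6 against 1.54 and 2.29 (5.02 ± 0.62). All 3 were near 0 in both iNKT17 libraries. The T cell counterparts ran the other way: *Cd247*, the zeta chain of CD3, had 1381 and 1275 against 4389 and 3732 (-1.61 ± 0.18), and *Zap70* had 1764 and 1201 against 2859 and 3006 (-1.01 ± 0.18). *Zap70* lost its call when only the 4 libraries were fitted (limma adjusted p = 0.0762).

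Of the 45 members of the T cell receptor signalling list, 13 were higher in iNKT1 and 8 in iNKT17, and the latter count was 17 without N0802 and 5 without N0804. *Themis*, which sets signal strength in thymocytes, had 981 and 999 against 117 and 154 (2.87 ± 0.25), and it also belongs to the double-positive thymocyte list. *Ubash3a*, a suppressor of T cell receptor signals, had 442 and 189 against 9.22 and 20.6 (4.29 ± 0.50). *Icos*, a co-stimulatory receptor of activated T cells, had 894 and 1173 against 5118 and 5817 (-2.41 ± 0.17, adjusted p = 2.12e-06), and *Pdcd1*, the gene of PD-1, had 296 and 168 against 2508 and 2249 (-3.41 ± 0.25). In SLAM family receptors, 3 of 9 members were higher in each subset: *Slamf7* had 1579 and 988 against 3.84 and 0.763 (8.74 ± 0.58), *Cd244* had 352 and 276 and no read (at least 136-fold), while *Cd84* (-1.30 ± 0.15) and *Slamf6* (-1.24 ± 0.19) were higher in iNKT17.

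Receptors for position in tissue differed between the subsets as well. Of 20 members of the homing list, 10 were higher in iNKT1 and 5 in iNKT17, beside 7.75% and 9.25% of all genes tested. *Cxcr3*, which follows interferon-induced chemokines, had 1032 and 984 against 45.3 and 17.5 (5.11 ± 0.62). On the other side *Ccr6*, whose ligand is CCL20, had no read in iNKT1 and 69.2 and 75.5 in iNKT17, and the leukotriene B4 receptor *Ltb4r1* had no read and 89.9 and 81.6. *Ccr4*, *Ccr10* and *Ccr2* were also higher in iNKT17, by log2 differences of -3.62 ± 0.29, -2.64 ± 0.39 and -1.41 ± 0.25. *Cxcr6*, a receptor shared by NKT subsets, had 4689 and 5918 against 3722 and 3519 and was not called, but it was called higher in iNKT1 without N0802 (difference 0.71, adjusted p = 0.0162).

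Calls among integrin chains went in both directions, beside 7.75% and 9.25% of all genes tested called higher in iNKT1 and in iNKT17. Of 14 members, 5 were higher in iNKT1 and 6 in iNKT17, the latter count being 2 without N0804 and 3 without N0807. *Itga1*, the alpha chain of a collagen receptor, had 1748 and 1036 against 3.07 and 0.763 (8.97 ± 0.72, adjusted p = 6.24e-06). *Itga4* had 2260.2 and 1090.0 against 59.9 and 57.2 (4.72 ± 0.44), and *Itgb1*, the beta chain with which both pair, had 3489 and 3318 against 689 and 644 (2.35 ± 0.15). All 3 were higher in both iNKT1 libraries. *Itga5*, the alpha chain of a fibronectin receptor that also pairs with beta 1, was higher in iNKT17 (-4.22 ± 0.36) beside *Itgb3*. *Itgav*, the alpha chain that pairs with beta 3, had 440.0 and 461 against 369.6 and 367 and was not called.

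The survival gene *Bcl2* had 1417 and 1247 against 118 and 89.2 (3.68 ± 0.21, adjusted p = 6.49e-07). It is a target of signals through CD122 and STAT5, and of the 17 members of the STAT5 list 4 were higher in each subset (4 and 7 without N0802, 7 and 3 without N0805, N0806 and N0807). Over all genes tested, 7.75% were called higher in iNKT1 and 9.25% in iNKT17. *Pim1* was higher in iNKT1 (1.93 ± 0.24) and *Socs3*, a feedback inhibitor of STAT3 signals, in iNKT17 (93.6 and 233 against 1196 and 1287, -3.06 ± 0.34). Among cytokine genes, *Tnfsf11*, the gene of RANKL, had 10.8 and 25.9 against 453 and 355 (-4.50 ± 0.48), and *Il21* had no read and 23.8 and 41.2.

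**Figure D4:**
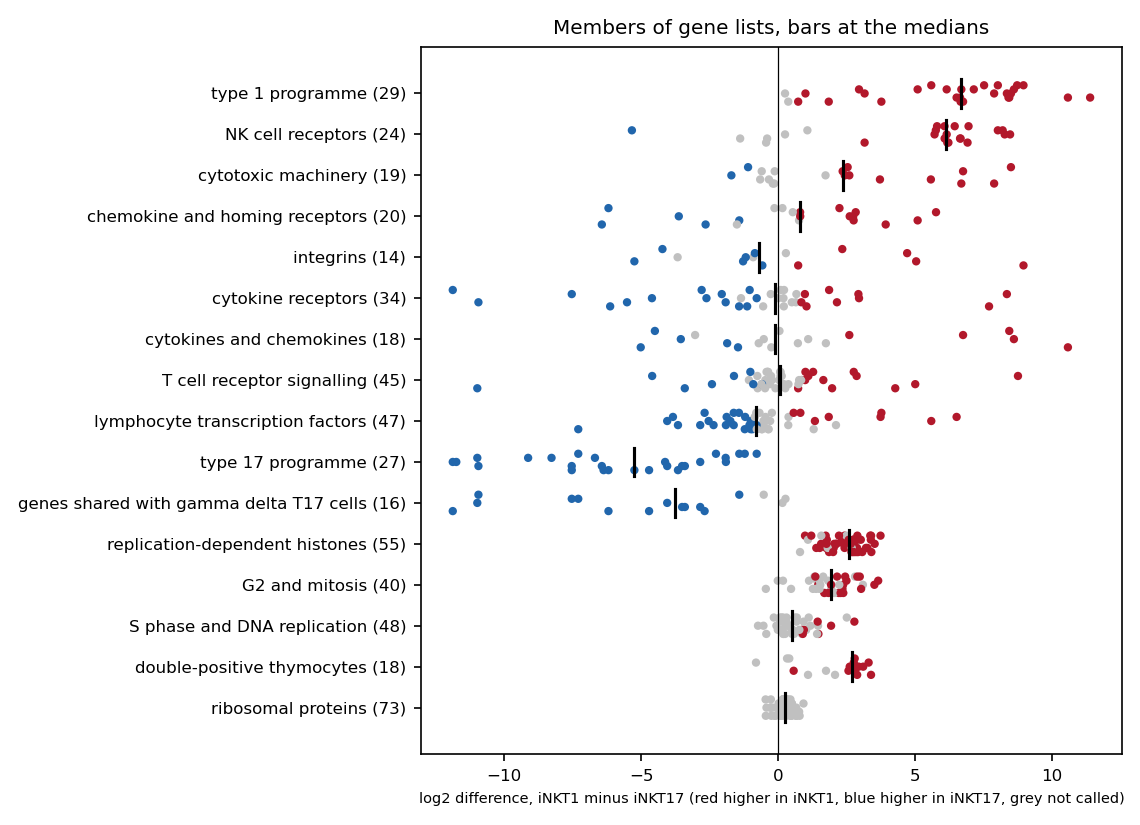
Log2 difference between iNKT1 and iNKT17 of each member of 16 gene lists, with the number of members in brackets and a bar at the median; red and blue genes were called higher in iNKT1 and in iNKT17, grey ones were not called. The type 1 list has its median at 6.70 and the type 17 list at -5.25, histones lie at 2.59 and ribosomal protein genes at 0.26 without a call.

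Among histone and mitotic genes the calls were toward iNKT1, beside 7.75% and 9.25% of all genes tested called higher in iNKT1 and in iNKT17. Of 55 replication-dependent histone members, 47 were higher in iNKT1 and 0 in iNKT17 (median 2.59), and without N0805, N0806 and N0807 the count was 28. These transcripts mostly lack a poly(A) tail, and the libraries were made from total RNA. *Hist1h1d*, a linker histone, had 8927 and 12178 against 2305 and 1832 (2.34 ± 0.28), and *Hist1h2bm* had 1337 and 3975 against 137 and 213 (3.75 ± 0.53). In each of the 55 the difference was positive, though near-identical copies may share reads. Of the G2 and mitosis list, 19 of 40 members were higher in iNKT1 and 0 in iNKT17, while 21 were not called (median 1.94). The count toward iNKT1 was 10 without N0805, N0806 and N0807, 14 without N0802, 9 without N0804 and 8 without N0807, and 1 member was called higher in iNKT17 without N0802. *Ccnb1*, a mitotic cyclin, had 119 and 120.3 against 8.45 and 10.7 (3.52 ± 0.63), and the proliferation marker *Mki67* had 249.6 and 146 against 37.7 and 38.9 (2.29 ± 0.35, adjusted p = 0.000772). In the list of S phase and DNA replication 7 of 48 members were higher in iNKT1 and 0 in iNKT17, and the count was 1 without N0807 and 2 without N0804. The 2 iNKT1 libraries were also those with the higher sum of double-positive thymocyte genes, given above. Whether those reads came from other cells or from iNKT1 cells was not tested, nor was the part of such cells in the histone and mitotic counts. By BrdU incorporation in vivo, the study found the lowest propagation among young thymic subsets in iNKT1 cells, below that of iNKT17 cells. It stated that RNA of replication-dependent histones did not reflect how readily the subsets propagate.

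Metabolic lists held calls in both directions, beside 7.75% and 9.25% of all genes tested called higher in iNKT1 and in iNKT17. A count near these shares says nothing particular about a list. Glucose transporter genes were on the iNKT1 side, with *Slc2a3* at 966 and 1331 against 284 and 329 (1.89 ± 0.21) and *Slc2a1* at 505 and 785 against 178 and 205 (1.72 ± 0.25), but of 21 members of the glycolysis list 4 were higher in each subset. These counts were 5 and 9 without N0802, 4 and 2 without N0804, 5 and 3 without N0805 and 3 and 2 without N0807. Of 28 members of the cholesterol and fatty acid list 1 was higher in iNKT1 and 4 in iNKT17 (4 and 6 without N0802, 0 and 2 without N0804, 0 and 5 without N0805, 0 and 3 without N0807), among them *Scd2*, a fatty acid desaturase, with 1371 and 899 against 2846 and 3205 (-1.44 ± 0.21). Of 42 interferon response members 10 were higher in iNKT1 and 3 in iNKT17, but 11 and 7 without N0802, 6 and 1 without N0804, 7 and 2 without N0805 and 4 and 1 without N0807. Among ribosomal protein genes 0 of 73 were called, but leaving out N0802 gave 37 higher in iNKT1, so this count depended on that library.

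The iNKT2 libraries of the same age gave one more point for each gene. For the 415 members at least log2 2 higher in iNKT1, the iNKT2 mean lay in the outer 25% of the log2 range next to iNKT17, or beyond it, for 233, in the middle for 149 and next to iNKT1 for 33. For the 488 members at least log2 2 higher in iNKT17, it lay next to iNKT17 for 197, in the middle for 176 and next to iNKT1 for 115. *Ccl5*, with 0.946 and 0 in the iNKT2 libraries N0803 and N0806, was of the first kind. *Il23r* had 76.6 and 72.0 in iNKT2, and *Sdc1* had 74.7 and 77.7, both in the middle of the log2 range and far below the iNKT17 level. *Zbtb16* had 3698 and 5484 in iNKT2, where its mean was the highest of the 3 subsets, although the libraries of iNKT2 and iNKT17 overlapped. These positions are descriptions and were not tested.

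The same comparison at 25 weeks was the nearest in the series. There 7.06% and 7.84% of all genes tested were called higher in iNKT1 and in iNKT17. Of the 1895 called members, 1828 differed in the same direction there. The change of the difference with age was called for 18 members, beside 0.156% of all genes tested. *Emb*, which encodes the adhesion molecule embigin, had 105 and 141 in young iNKT1 and 2165 and 2116 in young iNKT17, and 16.7 ± 1.77 (SD, n = 2) in aged iNKT1 and 2361 ± 114 in aged iNKT17, so the difference moved from -4.12 to -7.06 (change 2.94 ± 0.29, adjusted p = 0.00234). *Mtss1*, an actin-binding protein, moved from -2.90 to -6.49, and *Xkrx*, an Xk-related membrane protein gene, had 9.68 and 35.2 against 467 and 539 at 6 weeks and no read against 433 and 472 at 25 weeks. For these 3 genes the iNKT1 libraries were lower at 25 weeks while iNKT17 stayed within 2-fold. In the other direction *S1pr1*, the receptor for exit from the thymus, had 102 and 113 against 68.4 and 57.2 at 6 weeks and was not called, but 233 and 242 against 9.95 and 4.85 at 25 weeks, a change of -4.13 ± 0.57 (adjusted p = 0.0181). *Klra3* and *Rab27b*, a relative of *Rab27a*, had no read in the aged iNKT17 libraries.

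The number of age-dependent members moved with single libraries. It was 1033 without N0802, 40 without N0805, 3 without N0804 and 7 without N0807, and leaving out one aged library gave between 4 and 16. An unadjusted p under 0.05 was seen for 849 members, 7.92% of them. For the other members no change of the difference with age was shown, and the test had 2 libraries in each of its 4 groups.

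**Figure D5:**
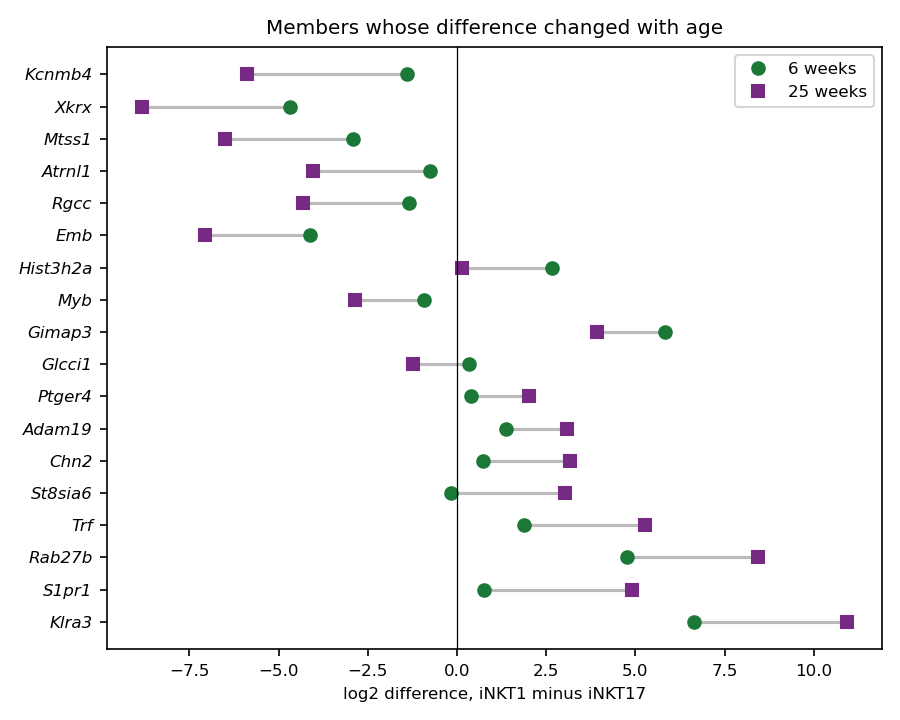
Log2 difference between iNKT1 and iNKT17 at 6 weeks (circles) and 25 weeks (squares) for the 18 members whose difference changed with age by limma. The 10 genes at the top moved downward with age, among them *Emb* from -4.12 to -7.06, and the 8 at the bottom moved upward, among them *S1pr1* from 0.77 to 4.90.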

How the data were processed

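Thymic iNKT subsets of BALB/c mice were sorted and stranded total RNA libraries were sequenced as single reads. Per the labels and the study's methods, reads were trimmed with Trim Galore 0.4.1 and cutadapt 1.9.1, aligned with STAR 2.5.0c to mm10 and counted per gene with featureCounts, and the deposited table holds signal values, which are counts the authors divided by DESeq2 size factors. All values were whole reads within 0.01 after the step of each library was recovered. The table also held 9 columns of the authors' own p-values, which were not used, and 11 members had names turned into dates by a spreadsheet and are left unnamed.

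Genes at 10 or more in at least 2 of 12 libraries (11530) were tested on log2(value + 1) with limma 3.58.1 (R 4.3.3), with 6 group means, a variance trend and Benjamini-Hochberg adjustment. The contrasts were iNKT1 minus iNKT17 at 6 weeks and its change with age. The 1 further library of the table, an aged iNKT17 sample with DNase treatment, was not fitted. A fold change on this scale understates that of low genes, and a gene without a read in one subset was given a bound from 3 reads. The script was tested on simulated data. Alternatives were edgeR 4.0.16 and DESeq2 1.42.0 on recovered reads, other pseudocounts, filters, scalings and library sets, and leaving out each library. Floors cover counting error only. Named genes were those the study names, the 15 largest differences in each direction, the 5 largest of each list, the 10 most abundant called members and the largest changes with age, and for the type 1, type 17, transcription factor and cytokine receptor lists any member. A further 35 genes were named after their values were seen. The members and lists were chosen with earlier results of these data known. Some genes of the lists are not reported here by name.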

Additional observations from a re-analysis of the deposited data

Results flagged for a closer look

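The difference between iNKT1 and iNKT17 changed between 6 and 25 weeks for 18 members, by limma's test of the difference between the ages at an adjusted p under 0.05. Values are the difference (iNKT1 minus iNKT17) at 6 weeks minus that at 25 weeks, on the log2 scale, from 2 libraries in each of 4 groups. Of genes that leaned more toward iNKT1 with age, the change was -4.27 for *Klra3*, -4.13 for *S1pr1*, -3.66 for *Rab27b*, -3.39 for *Trf* (transferrin), -3.22 for *St8sia6*, -2.46 for *Chn2*, -1.70 for *Adam19* and -1.62 for *Ptger4*, a prostaglandin E2 receptor. Of genes that leaned more toward iNKT17, it was 1.55 for *Glcci1*, 1.89 for *Gimap3*, 1.93 for *Myb*, 2.53 for *Hist3h2a*, 2.94 for *Emb*, 2.96 for *Rgcc*, 3.27 for *Atrnl1*, 3.59 for *Mtss1*, 4.15 for *Xkrx* and 4.50 for *Kcnmb4*, a potassium channel subunit. *Klra3* and *Rab27b* had no read in iNKT17 at 25 weeks and *Xkrx* none in iNKT1, so the sizes of these 3 changes depend on the value of 1 added before taking logs. Reads of *Klra3* may be shared with near-identical genes of its family. *Hist3h2a* had 1159 and 1714 against 218 and 225 at 6 weeks, and 144 and 169 against 127 and 158 at 25 weeks.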

How the results depend on the processing

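The counts of 885 genes higher in iNKT1 and 1010 higher in iNKT17 were 459 and 435 when only the 4 libraries were fitted and 564 and 576 with only the 6 young libraries. Leaving out one library gave between 512 and 1541 genes higher in iNKT1 and between 543 and 2294 higher in iNKT17, the highest of both without N0802. Requiring a gap of at least 2-fold between groups that did not overlap lowered the counts from 2893 and 2839 (background 26.0% and 26.8%) to 692 and 671 (6.26% and 7.02%). Other pseudocounts, filters and scalings, edgeR and DESeq2 stayed within 1.5 times of both counts. The 18 changes with age were 9 without a filter, 123 with DESeq2, 8 without N0805, N0806 and N0807, and between 3 and 1033 when one library was left out. Of 135 named genes called, 114 kept the call in all alternatives run, 21 lost it in 1 or more and 0 changed direction. Among genes not called the direction turned for *Krt8* (between -1.22 and 5.43 when one library was left out), *Runx3* (between -1.63 and 0.28, and 0.51 without N0805, N0806 and N0807) and *St8sia6* (between -0.50 and 0.14). The cause of these shifts was not tested. Of 476 list medians under alternatives, 31 moved by more than the spread between library pairs. No paired analysis was made, because the labels carry no replicate numbers and do not say which libraries of different subsets shared a sort. A gene at 0 could still be present below 5.55 normalized counts in iNKT1 or 2.31 in iNKT17, the worth of 3 reads in the shallower library.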

Other observations

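Some genes of protein folding in the endoplasmic reticulum were higher in iNKT17. *Pdia4*, a disulfide isomerase, had 4 values of 2184 and 1788 against 6046 and 7729 (iNKT1 against iNKT17), a log2 difference of -1.79 ± 0.21 (limma adjusted p = 0.000116). *Hspa5*, the chaperone BiP, had 3877 and 3855 against 7240.3 and 8344 (-1.01 ± 0.24, adjusted p = 0.0122), *Hsp90b1*, which folds integrins and Toll-like receptors, had 4500.0 and 2569 against 6744 and 10392 (-1.30 ± 0.36, adjusted p = 0.0295), and *Pdia3* had 4039.6 and 4001 against 5753 and 7459 (-0.70 ± 0.19, adjusted p = 0.0257). Both iNKT17 libraries lay above both iNKT1 libraries for these 4 genes, as they did for 26.8% of all genes tested. Without N0807 the adjusted p was 0.108 for *Hspa5*, 0.239 for *Hsp90b1* and 0.238 for *Pdia3*, and without N0805 it was 0.167 for *Hsp90b1*, whereas *Pdia4* kept its call in all alternatives run. *Dnajb9*, a target of the unfolded protein response, had 246 and 255 against 262 and 272 and was not called. *Pdia4* and *Dnajb9* were chosen after their values were seen.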
